A study of Homo sapiens with 16 samples.

Results

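RNA of LNCaP cells, an established human prostate cancer line that depends on the androgen receptor, was compared between 2 small interfering RNAs against the same target, OGT. The siOGT1 group and the siOGT2 group had 2 libraries each (replicates 1 and 2), which are 4 of the 16 libraries of the study. The cells of both groups had 48 h of knockdown and received the solvent DMSO during the last 4 h before harvest, so that the groups differed, per the labels, in the siRNA alone. A second set of 4 libraries carried the same 2 siRNAs and received 0.5 µM AT7519, an inhibitor of cyclin-dependent kinases, in place of DMSO. Libraries with a scrambled siRNA (Scr, 2 with DMSO and 2 with AT7519) served as a level to set beside the values, and libraries of the remaining arm, OSMI2, entered the model of the spread only. Nothing in the labels says whether the replicates were separate cultures, and the p-values therefore reflect the spread between these libraries, which may be technical. The members are the genes of the count table: 60252 were listed, 40417 had a count, and 23830 passed the filter on low counts and were tested.

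OGT encodes the enzyme that attaches a single sugar, O-GlcNAc, to serines and threonines of nuclear and cytosolic proteins, and OGA encodes the enzyme that removes it. An siRNA guide strand directs the cleavage of the transcript it pairs with along its length, and it can also lower other transcripts whose 3' UTR pairs with bases 2 to 8 of the guide, the seed. The siRNAs of a pair against 1 gene share their target but not their seeds, which is why knockdown experiments use more than 1 of them.

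Total counts were 147019364 and 56863068 in the siOGT1 libraries and 53782868 and 48354151 in the siOGT2 libraries, against a range of 40216911 to 147019364 over all 16. Replicates correlated across genes with r = 0.991 in siOGT1 cells and r = 0.987 in siOGT2 cells (log2 CPM, where CPM is the count scaled to the size of the library). All 12 luminal prostate markers were present, with a summed level of 6740 and 6945 CPM in siOGT1 cells, 5880 and 6072 CPM in siOGT2 cells and 5808 and 5944 CPM in Scr cells. All 11 leukocyte markers, 7 of 9 neuroendocrine markers, 7 of 12 stromal markers and 6 of 9 basal markers lay under 1 CPM.

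The target was lowered further by siOGT1 than by siOGT2. OGT had 20.7 and 14.6 CPM in siOGT1 cells, 36.0 and 29.8 CPM in siOGT2 cells and 274.0 and 263.4 CPM in Scr cells. Both siOGT1 libraries lay below both siOGT2 libraries, and both siRNA groups lay far below Scr. The log2 fold change of siOGT1 over siOGT2 was -0.88 (SE 0.13, adjusted p = 0.00113, edgeR quasi-likelihood test, Benjamini-Hochberg over 23830 genes). With any 1 of the 4 libraries left out it was between -1.17 and -0.66 and stayed under the threshold. With AT7519, OGT had 11.01 and 10.98 CPM in siOGT1 cells, 29.3 and 33.8 CPM in siOGT2 cells and 255.5 and 314.3 CPM in Scr cells, a log2 fold change of -1.52 (adjusted p = 2.1e-06). Relative to Scr under DMSO, OGT stood at a log2 fold change of -3.91 in siOGT1 cells and -3.03 in siOGT2 cells. OGA did not separate the siRNAs, with 58.8 and 35.5 CPM in siOGT1 cells, 62.3 and 40.7 CPM in siOGT2 cells and 330.8 and 288.7 CPM in Scr cells. Its log2 fold change was -0.12 (SE 0.22, adjusted p = 0.929), and its sign turned without siOGT2 replicate 1 or without siOGT1 replicate 2, within a range of -0.54 to 0.23.

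**Figure D1:**
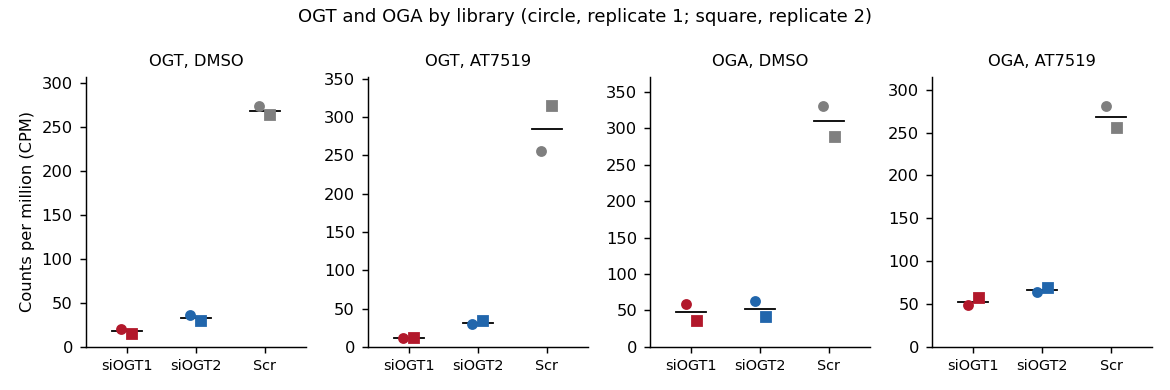
Level of OGT and OGA in CPM by library, with DMSO and with AT7519. Circles are replicate 1, squares replicate 2 and bars the mean of 2 libraries. OGT lies lowest in siOGT1 cells under both agents, and OGA overlaps between the siRNAs under DMSO.

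Under DMSO, 433 of the 23830 tested genes (1.82%) differed between siOGT1 and siOGT2 cells at an adjusted p under 0.05. Of these, 168 were higher (0.705%) and 265 lower (1.11%) in siOGT1 cells, and 2692 genes had an unadjusted p under 0.05. The lower genes moved further: 34 of them lay at least 2-fold apart and 153 at least 1.5-fold, against 9 and 50 of the higher genes, and the median log2 fold change was -0.62 for the lower and 0.46 for the higher genes (0.015 over all genes tested). In each of the 433 both siOGT1 libraries lay beyond both siOGT2 libraries, which held upward for 24.6% and downward for 20.5% of all genes tested. Protein-coding genes made up 162 of the 168 and 250 of the 265. Leaving out 1 of the 4 libraries leaves 1 library in its group, which widens the error of the contrast whichever library it is. A call lost in such a fit, here and below, can therefore reflect the smaller group and does not show what that library contributed. Of the 74 genes named here by rule and called under DMSO, 31 kept their call with any 1 of these libraries left out. The shares of all genes called higher and lower are a low background for the counts within gene lists given further on. The lists hold mostly protein-coding genes, of which 2.83% of 14576 were called in either direction. That share is the nearer background for them. Of lincRNAs 0.173% and of antisense transcripts 0.301% were called. DESeq2, used as a second method, called 783 genes under DMSO, which is the number over all genes behind its counts within lists.

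The genes lower in siOGT1 cells shared a 7-letter stretch in their 3' UTRs. All 16384 possible 7-letter words were counted on the transcript strand in the 3' UTR of 1 transcript per gene (14320 tested genes with such a UTR, OGT left out). Words were ranked by their excess over the share among all 14320 genes. Among the 246 lower genes with a 3' UTR, ATAGTGT came first, present in 96 (39.0%) against 8.83% of all. TAGTGTA came second, at 34.6% against 7.51%, and overlaps the first by 6 letters. Among the 161 higher genes with a 3' UTR, which are those lower in siOGT2 cells, AATCGGA came first, present in 15 (9.32%) against 1.32% of all, and ATCGGAA, which overlaps it by 6 letters, came second. As the words were picked from these calls, the shares are descriptions without a test. The OGT transcript itself holds ATAGTGT once in its coding part and once in its 3' UTR, and AATCGGA once in its coding part. No source used here gives the siRNA sequences, and whether either word matches an siRNA seed was not tested.

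Shown first are the stretches of the OGT transcript that hold the words, then those in leading genes described below, as mRNA-strand sequence of GENCODE v29 on GRCh38, 5' to 3', with the word in capitals.
OGT, coding, ATAGTGT, chrX:71567507-71567531, + strand: agcgtgttcccaATAGTGTactctg
OGT, 3' UTR, ATAGTGT, chrX:71574706-71574730, + strand: cttccaaaagtgATAGTGTgtgtaa
OGT, coding, AATCGGA, chrX:71563163-71563187, + strand: cacatttatgacAATCGGAtagttc
MAP2K4, 3' UTR, chr17:12143413-12143437, + strand: acaaaagggtgtATAGTGTtcacaa
MAP2K4, 3' UTR, chr17:12143435-12143459, + strand: caaactgtgaaaATAGTGTaagaac
HSPB8, 3' UTR, chr12:119193991-119194015, + strand: cagattccctggATAGTGTagtggt
G3BP2, 3' UTR, chr4:75644475-75644499, - strand: attttgtacagtATAGTGTatgaat
RNF11, 3' UTR, chr1:51271854-51271878, + strand: aggtctttttaaATAGTGTattatt
DPY19L1, 3' UTR, chr7:34931203-34931227, - strand: ggggctgattttATAGTGTaagaac
DSTYK, 3' UTR, chr1:205147188-205147212, - strand: actgcagtggcaATAGTGTtaaaaa
ERH, 3' UTR, chr14:69380370-69380394, - strand: aggatcttgttcAATCGGAaacccc
DICER1, 3' UTR, chr14:95090423-95090447, - strand: gaaaattatttaAATCGGAaaggaa

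In the DMSO calls that chose the word, the share differed by the letters around ATAGTGT and by the strand. As the word ranked first in these same genes, its lead over other forms was partly set by that choice. The values in this paragraph are therefore descriptions. Genes with ATAGTGT followed by an A were called lower in 16.1% of 335 cases, those with ATAGTGT without it in 4.52% of 930, those with TAGTGTA alone in 3.07% of 619, those with only TAGTGT in 1.63% of 1720 and those with none of these in 0.961% of 10716. The reverse complement ACACTAT stood in 9.76% of the lower genes against 6.84% of all, and the same letters in reverse order, TGTGATA, in 18.3% against 11.7%. In the coding part, ATAGTGT stood in 4.07% of the lower genes against 3.21% of all. In the genes lower in siOGT2 cells, ATAGTGT stood in 3.73% of 3' UTRs. Called genes also had longer 3' UTRs, with a median of 1839.5 bases in the lower genes against 1021.5 over all. Within UTRs of at most 559 bases the word stood in 18.2% of lower genes against 1.19% of all, within 560 to 1742 bases in 28.0% against 4.86%, and from 1743 bases upward in 52.8% against 20.4%. No human mature miRNA name among 2370 in RefSeq has the seed that would pair with either word.

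The words were picked from calls of the DMSO contrast, which does not compare the libraries with AT7519. Those libraries entered the same fit, through the filter, the scaling and the shared estimate of the spread. Among the 13913 genes of this set not called under DMSO, 146 of 1163 with ATAGTGT (12.6%) were called lower in siOGT1 than in siOGT2 cells with AT7519, against 408 of 12750 without it (3.20%); 3.56% of all genes tested were called lower in that contrast. The genes called higher made up 2.15% of those with the word and 3.52% of those without. The 554 genes called lower with AT7519 alone held the word in 26.4% of 3' UTRs, against 8.83% of all. They also held it more often in the coding part, in 46 (8.30%) against 3.21% of all. The reverse complement stood in 12.3% of their 3' UTRs against 6.84%, and the reversed letters in 17.9% against 11.7%. The median log2 fold change with AT7519 over these uncalled genes was -0.16 with ATAGTGT followed by A, -0.087 with ATAGTGT, -0.078 with TAGTGTA, -0.021 with TAGTGT and 0.014 with none. Their median 3' UTR length fell in the same order, at 3407, 3149, 2720, 2478 and 690 bases. These forms were not compared within classes of UTR length. The difference between genes with and without the word was present in each class of UTR length: 12.2% against 1.63% were called lower up to 559 bases, 15.2% against 3.65% between 560 and 1742 bases, and 11.96% against 4.64% above.

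Under DMSO, the libraries that chose the word, genes with AATCGGA were called lower in siOGT2 cells in 15.1% of 53 cases when it was followed by A and in 5.15% of 136 otherwise, those with ATCGGAA alone in 3.65% of 137, those with only ATCGGA in 2.90% of 276 and those with none in 0.970% of 13718. With AT7519 no such order was seen among the genes not called under DMSO. Of 172 genes with the word and not called under DMSO, 9 (5.23%) were called lower in siOGT2 than in siOGT1 cells with AT7519, against 465 of 13741 without it (3.38%). Their median log2 fold changes of siOGT1 over siOGT2 with AT7519 were 0.0095 with AATCGGA followed by A, 0.0074 with AATCGGA, 0.0031 with ATCGGAA, 0.043 with ATCGGA and -0.0037 with none. Under DMSO the word also stood in the coding part of 18 of the 161 genes (11.2%), against 3.65% of all. The share of 9.32% in the 3' UTRs rests on few genes and changed with the fit. It was 4.35% (26 of 598) with the replicate number as a block, where the word ranked 76 among all words, and 6.14% (21 of 342) in the fit on the 8 DMSO libraries, where it ranked 2. Without the low-count filter it was 6.71% (19 of 283) at rank 4. It was 18.2% (6 of 33) without siOGT1 replicate 2, 15.8% (6 of 38) without either siOGT2 replicate and 11.9% (7 of 59) without siOGT1 replicate 1.

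**Figure D2:**
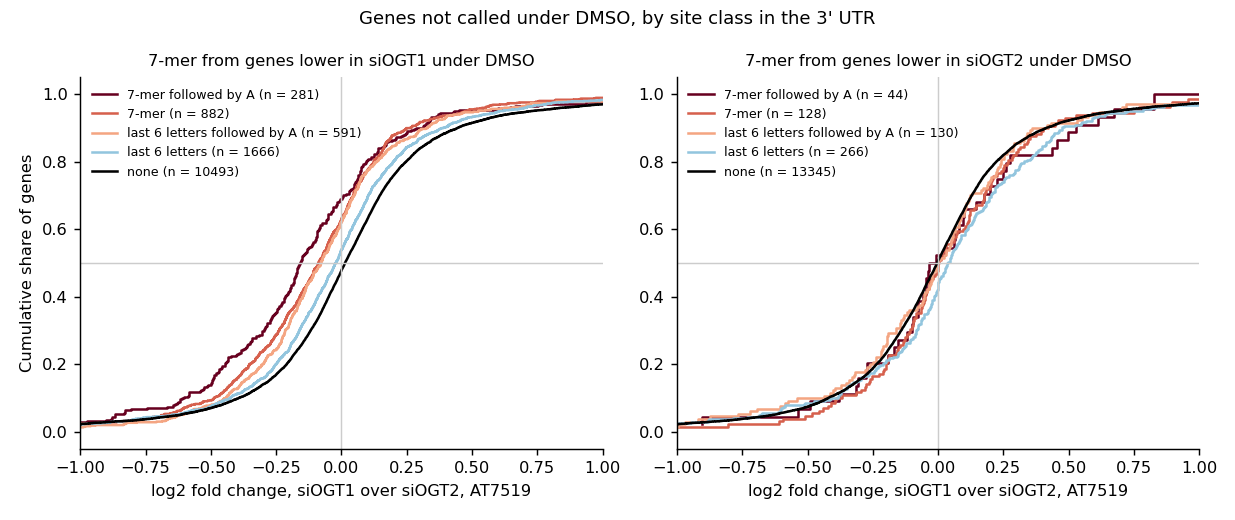
Cumulative share of genes by their log2 fold change of siOGT1 over siOGT2 with AT7519, for genes not called under DMSO, grouped by the longest form of the word in their 3' UTR (left, the word from genes lower in siOGT1 cells, right, the word from genes lower in siOGT2 cells). On the left the curves order by the form of the word, with medians of -0.16 to 0.014, and on the right they overlap. Median 3' UTR length on the left falls in the same order, from 3407 to 690 bases.

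The levels per library were summarised over genes not called under DMSO, since the called genes chose the words. For the 1163 such genes with ATAGTGT, the median log2(CPM + 1), as a deviation from the mean of the 6 siRNA libraries of the agent and relative to the genes without the word, was -0.038 and -0.038 in siOGT1 cells, -0.0030 and 0.023 in siOGT2 cells and 0.018 and 0.037 in Scr cells with DMSO. The siOGT1 libraries lay below the other 4, but these are the libraries from which the word was picked. With AT7519 it was -0.042 and -0.045 in siOGT1 cells, 0.061 and 0.029 in siOGT2 cells and 0.029 and -0.022 in Scr cells, lowest in both siOGT1 libraries. For the 172 genes with AATCGGA it was 0.016 and 0.021 in siOGT1 cells, -0.031 and -0.022 in siOGT2 cells and 0.0012 and 0.012 in Scr cells with DMSO, again in the libraries that chose the word. With AT7519 it was 0.0090 and 0.036 in siOGT1 cells, -0.012 and -0.0080 in siOGT2 cells and 0.019 and -0.011 in Scr cells, so that siOGT2 and Scr overlapped.

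The Scr level shows on which side most of the lower genes differed. Of the 265 genes lower in siOGT1 cells, the mean of the Scr libraries lay nearer to the siOGT2 mean in 222 and nearer to the siOGT1 mean in 43. The median log2 fold change relative to Scr was -0.53 in siOGT1 cells and 0.04 in siOGT2 cells. ATAGTGT stood in the 3' UTR of 93 of 213 such genes with Scr nearer to siOGT2 (43.7%) and of 3 of 33 with Scr nearer to siOGT1 (9.09%). The 168 higher genes had no such side: Scr lay nearer to siOGT1 in 82 and nearer to siOGT2 in 86, and the medians relative to Scr were 0.24 in siOGT1 cells and -0.21 in siOGT2 cells. AATCGGA stood in 9 of 79 with Scr nearer to siOGT1 (11.4%) and in 6 of 82 with Scr nearer to siOGT2 (7.32%). The comparisons with Scr share the Scr libraries. At the same threshold 2479 genes (10.4%) differed from Scr in siOGT1 cells and 1025 (4.3%) in siOGT2 cells.

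MAP2K4, a kinase that phosphorylates and activates the stress kinases JNK and p38, had, together with MACROH2A1, the lowest adjusted p of the named genes. It had 16.6 and 13.8 CPM in siOGT1 cells, 62.2 and 66.8 CPM in siOGT2 cells and 67.3 and 69.4 CPM in Scr cells. The siOGT2 libraries lay beside Scr, and both siOGT1 libraries far below them. Its log2 fold change was -2.08 (SE 0.13, adjusted p = 4.88e-09) under DMSO and -2.52 with AT7519, and its 3' UTR holds ATAGTGT at 2 places. Among 19 tested kinases of the JNK pathway it was the single one called under DMSO by edgeR, and DESeq2 called 3 (list median 0.02). MAP2K7, the other kinase directly upstream of JNK, had 40.8 and 42.6 CPM in siOGT1 cells and 41.2 and 40.7 CPM in siOGT2 cells. MAPK8, which encodes JNK1, had 47.2 and 46.1 CPM in siOGT1 cells and 56.1 and 52.6 CPM in siOGT2 cells, a log2 fold change of -0.22 (adjusted p = 0.308). With AT7519 MAPK8 was called lower by edgeR (-0.32, adjusted p = 0.0381). Of the 19 kinases 4 were called lower and 1 higher with AT7519, against 3.56% and 2.87% of all genes tested.

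Further lower genes held the word in the 3' UTR. G3BP2, an RNA-binding protein of stress granules, had 169.9 and 157.6 CPM in siOGT1 cells, 371.5 and 401.2 CPM in siOGT2 cells and 393.5 and 425.2 CPM in Scr cells (log2 fold change -1.24, SE 0.09, adjusted p = 1.14e-07). RNF11, a RING-domain adaptor of ubiquitin ligases, had 81.7 and 77.5 CPM in siOGT1 cells, 184.5 and 186.1 CPM in siOGT2 cells and 184.6 and 189.0 CPM in Scr cells (-1.22, SE 0.09, adjusted p = 9.67e-08). In both genes the siOGT2 and Scr libraries lay close together and the siOGT1 libraries stood apart below them. DSTYK, a dual serine/threonine and tyrosine kinase, had 34.0 and 27.4 CPM in siOGT1 cells and 66.8 and 69.6 CPM in siOGT2 cells (log2 fold change -1.15). DPY19L1, a protein C-mannosyltransferase, had 6.06 and 5.83 CPM in siOGT1 cells and 13.8 and 13.1 CPM in siOGT2 cells (-1.17). HSPB8, a small heat shock protein, lay at 0.887 and 1.03 CPM in siOGT1 cells and 2.99 and 3.77 CPM in siOGT2 cells (-1.83), with Scr cells between them at 2.14 and 2.42 CPM. SMIM13, which encodes a small membrane protein, had 29.1 and 27.6 CPM in siOGT1 cells and 62.0 and 66.4 CPM in siOGT2 cells (-1.18). These genes kept their calls with any 1 library left out.

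Not every strongly lower gene held the whole word. MACROH2A1, the histone variant macroH2A1, had 104.9 and 98.8 CPM in siOGT1 cells, 259.0 and 244.7 CPM in siOGT2 cells and 282.8 and 265.2 CPM in Scr cells (log2 fold change -1.31, SE 0.08, adjusted p = 4.88e-09), with TAGTGTA but not ATAGTGT in its 3' UTR. LATS2, a kinase of the Hippo pathway, had 5.49 and 4.15 CPM in siOGT1 cells and 11.7 and 9.89 CPM in siOGT2 cells (-1.15). It was not called with AT7519 (-0.54, edgeR adjusted p = 0.0685). Its 3' UTR also held TAGTGTA. LRRC31 held none of these, with 3.12 and 2.89 CPM in siOGT1 cells, 7.71 and 8.67 CPM in siOGT2 cells and 4.61 and 4.61 CPM in Scr cells, and its log2 fold change was -1.44 under DMSO and -0.68 with AT7519. AGR2, a disulfide isomerase of the endoplasmic reticulum, held TAGTGT, with 4.85 and 4.49 CPM in siOGT1 cells, 15.8 and 18.2 CPM in siOGT2 cells and 18.6 and 23.4 CPM in Scr cells (-1.86). Its call was lost without siOGT1 replicate 2 (adjusted p = 0.0655). FAR2P2 and CYP4F62P, pseudogenes that overlap each other, were lower in siOGT1 cells while Scr lay with siOGT1: FAR2P2 had 2.87 and 2.39 CPM in siOGT1 cells, 6.47 and 6.39 CPM in siOGT2 cells and 2.61 and 2.74 CPM in Scr cells. CYP4F62P lost its call without siOGT1 replicate 2 (adjusted p = 0.0744), and both may share reads with copies elsewhere and are uncertain. MAP2K4, HSPB8, MACROH2A1, RNF11 and SMIM13 overlap another annotated gene, and with the strand setting of the counter unknown here, some of their reads may belong to that gene.

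**Figure D3:**
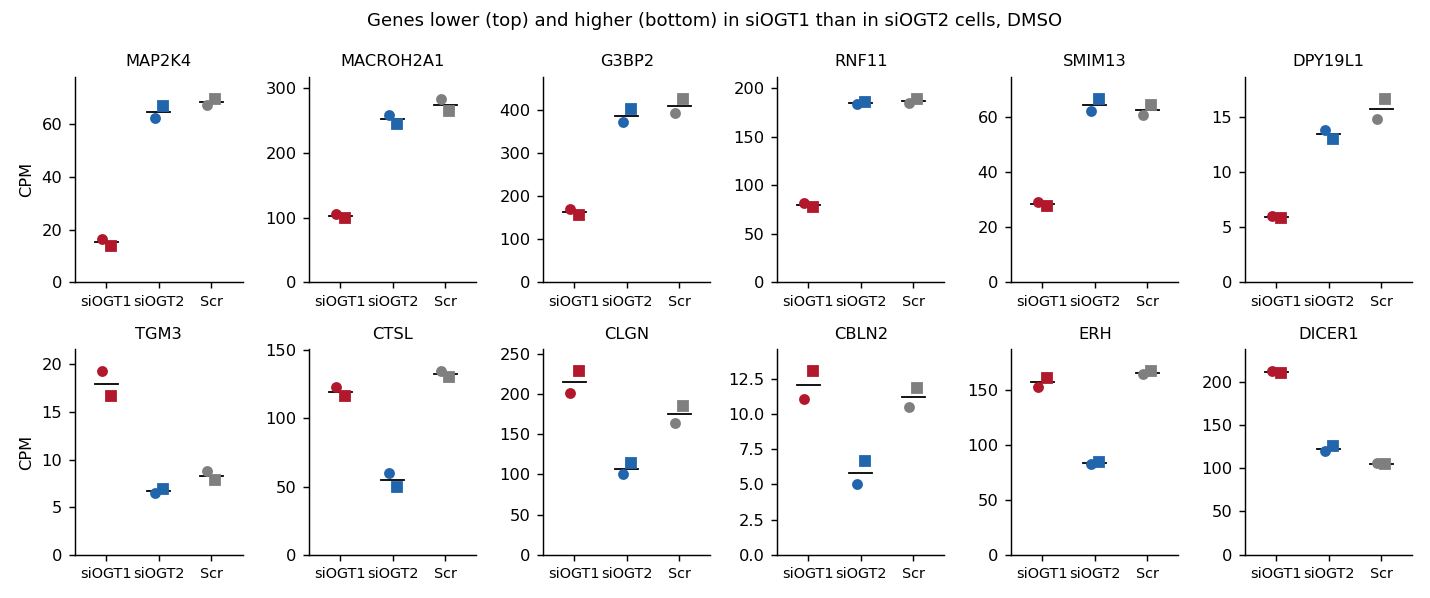
Level in CPM by library under DMSO of 6 genes lower (top row) and 6 genes higher (bottom row) in siOGT1 than in siOGT2 cells, with Scr on the right of each panel. Circles are replicate 1, squares replicate 2 and bars the mean of 2 libraries. In the top row Scr lies beside siOGT2, whereas in the bottom row it lies beside siOGT1 for CTSL, CBLN2 and ERH and beside siOGT2 for TGM3 and DICER1.

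Among the genes higher in siOGT1 cells, several lay at the Scr level there and below it in siOGT2 cells. ERH, a small conserved nuclear protein, had 153.0 and 161.3 CPM in siOGT1 cells, 82.8 and 84.6 CPM in siOGT2 cells and 164.7 and 167.0 CPM in Scr cells (log2 fold change 0.91, SE 0.08, adjusted p = 2.27e-06), and holds AATCGGA followed by A in its 3' UTR. CTSL, the lysosomal protease cathepsin L, had 123.2 and 116.005 CPM in siOGT1 cells, 59.6 and 49.3 CPM in siOGT2 cells and 134.2 and 130.4 CPM in Scr cells (1.14, SE 0.15, adjusted p = 7.26e-04). With AT7519 the log2 fold change of CTSL was 2.21. RAB20, a small GTPase of endosome and phagosome traffic, had 10.5 and 10.6 CPM in siOGT1 cells, 4.93 and 4.22 CPM in siOGT2 cells and 11.3 and 10.5 CPM in Scr cells (1.20). CBLN2, a secreted synapse organizer, had 11.05 and 13.01 CPM in siOGT1 cells, 5.01 and 6.64 CPM in siOGT2 cells and 10.5 and 11.9 CPM in Scr cells (1.04). EBP, a sterol isomerase of cholesterol synthesis, had 103.4 and 99.9 CPM in siOGT1 cells, 66.0 and 61.6 CPM in siOGT2 cells and 104.4 and 98.8 CPM in Scr cells (0.67).

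Other higher genes lay above Scr in siOGT1 cells. DICER1, the nuclease that makes mature miRNAs from their precursors, had 211.6 and 209.9 CPM in siOGT1 cells, 119.9 and 125.1 CPM in siOGT2 cells and 105.6 and 104.9 CPM in Scr cells (log2 fold change 0.78, SE 0.10, adjusted p = 1.78e-04). Its 3' UTR holds AATCGGA followed by A, yet its Scr level lay below both siRNA groups. TGM3, a transglutaminase, had 19.3 and 16.7 CPM in siOGT1 cells, 6.46 and 6.94 CPM in siOGT2 cells and 8.79 and 7.81 CPM in Scr cells (1.43, SE 0.17, adjusted p = 5.68e-05). COL5A2, a chain of type V collagen, had 44.5 and 41.1 CPM in siOGT1 cells, 25.5 and 23.9 CPM in siOGT2 cells and 21.0 and 18.6 CPM in Scr cells (0.79). CLGN, a chaperone of the endoplasmic reticulum, had 201.8 and 228.1 CPM in siOGT1 cells, 100.6 and 113.8 CPM in siOGT2 cells and 164.6 and 185.5 CPM in Scr cells (1.003, SE 0.09, adjusted p = 1.85e-06), so that Scr lay between the siRNAs. ERH and DICER1 overlap another annotated gene. ADA2, which holds AATCGGA, had 3.21 and 3.30 CPM in siOGT1 cells and 1.55 and 1.71 CPM in siOGT2 cells, and it lost its call when each of the 4 libraries in turn was left out (highest adjusted p = 0.243).

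Around OGT itself, GFPT1 was lower in siOGT1 cells. It encodes the rate-limiting enzyme of the hexosamine pathway, which supplies the sugar donor of O-GlcNAc, and had 90.8 and 96.0 CPM in siOGT1 cells, 164.1 and 180.6 CPM in siOGT2 cells and 152.9 and 169.9 CPM in Scr cells. The groups did not overlap, and the log2 fold change was -0.88 (SE 0.08, adjusted p = 2.27e-06) under DMSO and -1.13 with AT7519. Its 3' UTR holds ATAGTGT once. Apart from GFPT1 and OGT, none of the 13 other tested genes of the pathway and the O-GlcNAc enzymes passed edgeR's test (list median -0.10), and DESeq2 called 3 of all 15. Among the later enzymes, GNPNAT1 had 81.2 and 89.2 CPM in siOGT1 cells and 91.0 and 99.8 CPM in siOGT2 cells, and PGM3 had 75.2 and 76.0 CPM in siOGT1 cells and 78.4 and 83.3 CPM in siOGT2 cells. UAP1, which makes the sugar donor in the last step, had 228.6 and 252.6 CPM in siOGT1 cells and 187.5 and 210.2 CPM in siOGT2 cells, a log2 fold change of 0.27 (adjusted p = 0.137) that passed the test with AT7519 (0.34, adjusted p = 0.0184). None of 28 chromatin factors known to bind OGT or carry its mark passed edgeR's test under DMSO (list median 0.05), with 3 at an unadjusted p under 0.05 and 2 called by DESeq2. Of 16 genes of the RNA interference machinery, DICER1 was the single one called by edgeR, and DESeq2 called 2. AGO2, the slicer, had 167.0 and 170.8 CPM in siOGT1 cells and 165.8 and 182.1 CPM in siOGT2 cells.

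Of 37 tested genes induced by the androgen receptor, 4 were higher, none lower and 33 did not pass the test (list median 0.04). KLK3, which encodes prostate-specific antigen, had 1286 and 1302 CPM in siOGT1 cells, 785.3 and 801.2 CPM in siOGT2 cells and 1029 and 1074 CPM in Scr cells (log2 fold change 0.71, SE 0.11, adjusted p = 9.12e-04). PLPP1, a lipid phosphatase, had 203.2 and 226.7 CPM in siOGT1 cells and 125.7 and 124.2 CPM in siOGT2 cells (0.78). KLK2, a related kallikrein, had 229.5 and 257.7 CPM in siOGT1 cells and 137.6 and 153.6 CPM in siOGT2 cells (0.74). The KLK2 call was lost without siOGT2 replicate 1 or siOGT1 replicate 2 (highest adjusted p = 0.103), and the call of the kinase CAMKK2 (0.50) was lost in all but 1 of the 4 fits with a library left out, staying only without siOGT2 replicate 1 (highest adjusted p = 0.251). TMPRSS2 and FKBP5, classic members of the list, did not pass the test (0.19 and -0.10).

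Of 16 tested androgen-repressed genes, 5 were lower in siOGT1 cells and none higher (list median -0.22), and all 5 were UGT2B genes, which encode enzymes that inactivate androgens by glucuronidation. UGT2B10 had 24.5 and 33.8 CPM in siOGT1 cells, 57.8 and 77.3 CPM in siOGT2 cells and 40.1 and 58.6 CPM in Scr cells (log2 fold change -1.22, SE 0.18, adjusted p = 0.00154). UGT2B11 had 93.2 and 131.6 CPM in siOGT1 cells, 194.9 and 287.7 CPM in siOGT2 cells and 90.9 and 119.4 CPM in Scr cells (-1.10). UGT2B15 had 669.0 and 845.2 CPM in siOGT1 cells, 1109 and 1404 CPM in siOGT2 cells and 499.0 and 600.2 CPM in Scr cells (-0.73), and UGT2B17 had a log2 fold change of -0.44 and kept its call only without siOGT2 replicate 1. For UGT2B11, UGT2B15 and UGT2B28 the call was lost in fits on the 4 compared or all 8 DMSO libraries alone, for UGT2B10 in the fit on the 8, and for UGT2B15 and UGT2B28 also without siOGT1 replicate 1 or siOGT2 replicate 2 (highest adjusted p 0.0891 and 0.202). These genes are close copies of each other, so that reads could be split among them. The other called luminal marker besides KLK3 was KLK2, and the summed luminal markers given above were higher in siOGT1 than in siOGT2 cells; their part in the androgen-regulated differences was not tested.

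**Figure D4:**
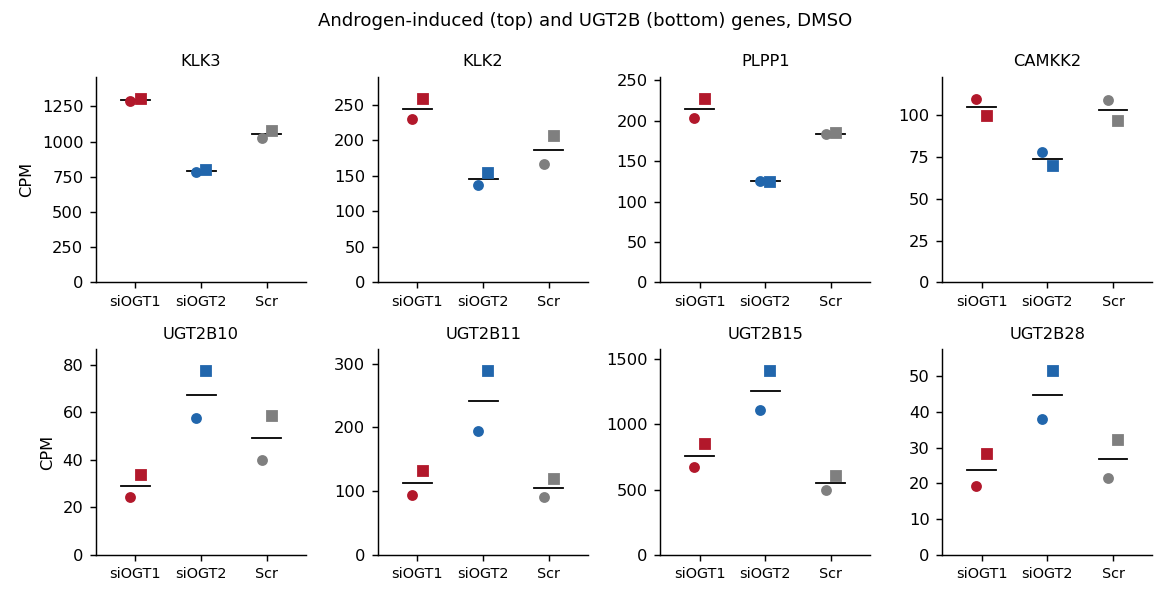
Level in CPM by library under DMSO of the 4 called androgen-induced genes (top row) and of 4 called UGT2B genes (bottom row). Circles are replicate 1, squares replicate 2 and bars the mean of 2 libraries. The top row is higher and the bottom row lower in siOGT1 than in siOGT2 cells, and for UGT2B11 and UGT2B15 Scr lies at or below siOGT1.

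Of 34 tested genes of the unfolded protein response, 5 were lower (ATF3, VLDLR, HSPA5, MANF and HYOU1) and 1 was higher (PDIA4). The other 28 did not pass the test, and the list median was -0.24. Under DMSO 17 of the 34 had an unadjusted p under 0.05 in edgeR's test, against 2692 of all 23830 genes. DESeq2 called 9 of them, against 783 over all genes. With AT7519 11 were called lower and 1 higher, against 3.56% and 2.87% of all genes tested. HSPA5, the main chaperone of the endoplasmic reticulum, had 775.1 and 826.7 CPM in siOGT1 cells, 985.1 and 1122 CPM in siOGT2 cells and 874.1 and 968.3 CPM in Scr cells (log2 fold change -0.40, adjusted p = 0.0107). ATF3, a stress-induced transcription factor, had 25.9 and 25.6 CPM in siOGT1 cells and 40.6 and 37.3 CPM in siOGT2 cells (-0.60, adjusted p = 0.00358). PDIA4, a disulfide isomerase, had 274.3 and 277.5 CPM in siOGT1 cells, 196.8 and 198.4 CPM in siOGT2 cells and 286.3 and 289.4 CPM in Scr cells (0.48). These calls were modest: with 1 library left out HYOU1, VLDLR and MANF were lost in all 4 fits, HSPA5 without siOGT1 replicate 1, siOGT1 replicate 2 or siOGT2 replicate 2, PDIA4 without siOGT2 replicate 1, siOGT1 replicate 2 or siOGT2 replicate 2, and ATF3 without siOGT2 replicate 1 or siOGT1 replicate 2 (highest adjusted p 0.339 for HYOU1, 0.252 for HSPA5, 0.0660 for PDIA4 and 0.0868 for ATF3).

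Of 40 tested G2/M genes, 5 were higher, 1 was lower and 34 did not pass the test (list median 0.23). Of 41 G1/S genes 2 were higher and 39 did not pass (list median 0.17). In edgeR's test 25 of the 40 and 10 of the 41 had an unadjusted p under 0.05, and DESeq2 called 7 and 3. Over all 23830 genes tested, 2692 had an unadjusted p under 0.05. CCNA2, a cyclin of S phase and mitosis, had 108.3 and 107.1 CPM in siOGT1 cells, 80.2 and 76.2 CPM in siOGT2 cells and 100.8 and 97.9 CPM in Scr cells (log2 fold change 0.46, adjusted p = 0.0267), and PCNA, the sliding clamp of replication, had 261.4 and 265.1 CPM in siOGT1 cells, 197.8 and 184.8 CPM in siOGT2 cells and 248.1 and 256.0 CPM in Scr cells (0.46, adjusted p = 0.0103). Both calls were lost when each of the 4 libraries in turn was left out (highest adjusted p 0.252 and 0.171), and so were those of SLBP, PBK, PLK1 and NEK2. FOXM1 kept its call only without siOGT1 replicate 1, so that none of the 7 higher calls held in all 4 fits. The lower G2/M gene was PRC1, which bundles microtubules of the central spindle, with 82.4 and 71.0 CPM in siOGT1 cells, 132.9 and 122.3 CPM in siOGT2 cells and 147.4 and 139.7 CPM in Scr cells (-0.73, SE 0.10, adjusted p = 1.75e-04). It kept its call with any 1 library left out, and its 3' UTR holds ATAGTGT followed by A.

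The other lists held few calls. Of 36 interferon-stimulated genes 2 were lower, of which IFIT2 had 2.66 and 1.97 CPM in siOGT1 cells, 5.47 and 4.602 CPM in siOGT2 cells and 6.23 and 6.02 CPM in Scr cells (-1.10), lost without siOGT2 replicate 1 or siOGT1 replicate 2 (highest adjusted p = 0.145). Of 26 cholesterol synthesis genes 1 was higher (EBP) and 2 lower (STARD4 and SREBF1), and of 21 fatty acid genes 2 were lower (ACSS2 and ME1). The SREBF1 call was lost without siOGT2 replicate 1 or siOGT1 replicate 2, and the ME1 call in each fit with a library left out other than siOGT2 replicate 1 (highest adjusted p 0.174 and 0.206). ACSS2, which makes acetyl-CoA from acetate, had 73.9 and 69.8 CPM in siOGT1 cells, 110.4 and 98.4 CPM in siOGT2 cells and 70.1 and 66.5 CPM in Scr cells (-0.54, adjusted p = 9.68e-04). Of 30 p53 targets and 25 heat shock genes 2 each were lower, of 33 immediate early genes 3 were lower, and of 31 glycolysis genes 1 was higher and 1 lower. With 1 library left out, DUSP1 and KLF6 of the immediate early genes, HK1 of the glycolysis genes and the interferon-stimulated HERC5 were lost in all 4 fits. GDF15, HSP90AB1, ATF3 and HK2 were lost without siOGT2 replicate 1 or siOGT1 replicate 2, and TP53INP1 without siOGT1 replicate 2 or siOGT2 replicate 2. HK2 was also lost in the fits on the 4 compared or all 8 DMSO libraries, and KLF6 with upper-quartile scaling or library size only. In the 4 fits with a library left out, the log2 fold change of HSPB8, a heat shock gene, stayed between -1.97 and -1.65. That of EBP stayed between 0.63 and 0.73, that of STARD4 between -0.68 and -0.59 and that of ACSS2 between -0.62 and -0.44. No gene passed edgeR's test under DMSO among 66 ribosomal proteins, 43 splicing regulators, 23 replication histones and 17 genes of the epithelial and mesenchymal switch. An unadjusted p under 0.05 was found in 0, 7, 0 and 4 of these, and DESeq2 called 0, 1, 0 and 1. With AT7519, 12 of the 43 splicing regulators were called lower in siOGT1 cells, against 3.56% of all genes tested. The 43 comprise SR proteins, hnRNPs, CLK kinases and related genes, and CLK1, CCNL1, SRPK2 and PTBP2 were among the 12. BIRC2, an inhibitor of apoptosis, was the single call among 15 NF-kB targets and among 29 apoptosis regulators (-0.64), lost without siOGT1 replicate 2 (adjusted p = 0.0587), and its 3' UTR holds ATAGTGT followed by A.

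The differences between the siRNAs were measured again in the libraries with AT7519, which share none with the DMSO contrast. There, 1532 genes (6.43%) were called, 683 higher (2.87%) and 849 lower (3.56%) in siOGT1 cells. Of the 433 genes called under DMSO, 430 had the same sign with AT7519 (99.3%, against 66.6% over all genes tested), and 372 were called with the same sign, which is 85.9% of the DMSO calls and 24.3% of the AT7519 calls. None was called with the opposite sign. The lower genes had the same sign in 265 of 265 and the higher genes in 165 of 168. Of the 1160 genes called only with AT7519, 1097 (94.6%) had the same sign under DMSO. The number called in both was 179 without siOGT1 replicate 1, 122 without siOGT1 replicate 2, 153 without siOGT2 replicate 1 and 129 without siOGT2 replicate 2 of the DMSO set, and 322 to 391 without any 1 library of the AT7519 set.

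**Figure D5:**
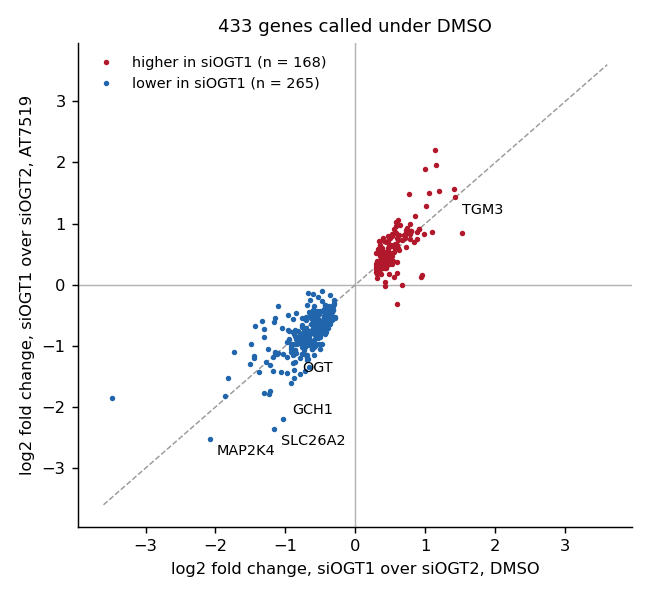
Log2 fold change of siOGT1 over siOGT2 under DMSO (x axis) and with AT7519 (y axis) for the 433 genes called under DMSO, one point per gene, with the line of equal change dashed. Of the points, 430 have the same sign on both axes, and SLC26A2 and GCH1 lie further down with AT7519.

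The size of the difference between siRNAs depended on the agent in 3 genes (0.0126%; 1040 genes had an unadjusted p under 0.05 for this difference). SLC26A2, a sulfate transporter, had 11.1 and 9.31 CPM in siOGT1 cells and 55.4 and 48.3 CPM in siOGT2 cells with AT7519, and 28.6 and 26.7 CPM in siOGT1 cells and 60.7 and 63.8 CPM in siOGT2 cells with DMSO. Its log2 fold change was -2.35 with AT7519 and -1.17 under DMSO (adjusted p of the difference 0.00657). GCH1, the first enzyme of tetrahydrobiopterin synthesis, had 6.59 and 5.85 CPM in siOGT1 cells and 29.4 and 27.5 CPM in siOGT2 cells with AT7519, and 14.3 and 13.4 CPM in siOGT1 cells and 28.1 and 28.9 CPM in siOGT2 cells with DMSO. Its log2 fold change was -2.20 with AT7519 and -1.04 under DMSO (adjusted p of the difference 0.00534), and its 3' UTR holds ATAGTGT followed by A. GDPD1, a phosphodiesterase of lipids, had 13.3 and 14.4 CPM in siOGT1 cells and 5.52 and 5.60 CPM in siOGT2 cells with AT7519, and 27.2 and 29.1 CPM in siOGT1 cells and 22.9 and 23.9 CPM in siOGT2 cells with DMSO (1.32 and 0.27, adjusted p of the difference 0.00792). Without siOGT1 replicate 1 or siOGT2 replicate 1 of the DMSO set, or siOGT1 replicate 2 of the AT7519 set, no gene was called for this difference, and without siOGT2 replicate 1 of the AT7519 set 7 were.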

How the data were processed

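Total RNA was sequenced with a strand-specific TruSeq kit, per the labels. The authors deposited raw read counts per gene. STAR, HTSeq and DESeq2 and the builds hg19 and GRCh37 are listed, with no version, in the submitters' processing notes, and no source used here states how HTSeq treated strand. A second table of normalized counts was not used. The members and gene lists were chosen with earlier results of these data known.

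Counts of all 16 libraries (8 groups of 2, 8 residual degrees of freedom) were fitted in R 4.3.3 with edgeR 4.0.16: filterByExpr, TMM scaling, glmQLFit (robust) and two-sided glmQLFTest, and calls were made under 0.05 after Benjamini-Hochberg adjustment. The common biological coefficient of variation was 0.110. Each SE was computed as |log2 fold change| / √F. The fit was tested on simulated data. Contrasts were siOGT1 over siOGT2 with DMSO and with AT7519, their difference, and each arm over Scr.

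Of 60252 gene IDs, 55528 had a name and 55951 a model in GENCODE v29, which is on GRCh38 and not the build of the counts, and served for names, overlaps and 3' UTRs (1 transcript per gene). Genes named in the text are OGT and OGA, up to 12 genes per direction ranked by the smaller log2 fold change of both agents, up to 6 further per direction by size, up to 4 called per list, and the called interaction genes. Other genes in a list were picked after their values were seen. MANF, VLDLR and UGT2B17 complete small counts of called genes. Alternatives were other scaling, DESeq2 1.42.0, other filters, fewer libraries in the fit, a replicate block, a minimum fold and each library left out.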

Additional observations from a re-analysis of the deposited data

Results flagged for a closer look

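For 3 genes the difference between siOGT1 and siOGT2 cells changed with the agent by the interaction term of the edgeR model. The log2 fold change with AT7519 minus that under DMSO was -1.18 for SLC26A2, -1.16 for GCH1 and 1.05 for GDPD1. SLC26A2 and GCH1 were lower in siOGT1 cells under both agents, and GDPD1 was called with AT7519 alone. Groups of 2 libraries are too small to test a single library against its group.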

How the results depend on the processing

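Genes called under DMSO numbered 783 with DESeq2, 697 without a filter on low counts, 825 with only the groups compared in the fit, 883 with only the 8 libraries of the agent and 13 at a minimum fold of 1.5, and 131 to 195 with 1 library left out. Those called with AT7519 numbered 273 with only the groups compared, 660 with only the 8 libraries of the agent and 68 at a minimum fold of 1.5, and 841 to 1175 with 1 library left out. Those called for the difference between agents numbered 17 with DESeq2, 21 without the filter, 0 with only the groups compared or at the minimum fold, and 0 to 7 with 1 library left out. Those seen again with AT7519 numbered 642 with DESeq2, 566 without the filter and 12 at the minimum fold, and 122 to 391 with 1 library left out. OGT kept its log2 fold change of -0.88 but missed the threshold at the minimum fold, and ranged from -1.17 to -0.66 with 1 library left out. The share of genes lower in siOGT1 cells with ATAGTGT was 32.9% with DESeq2, 72.7% at the minimum fold and 44.9% to 53.3% with 1 library left out. That of genes lower in siOGT2 cells with AATCGGA was 0% at the minimum fold (0 of 2) and 11.9% to 18.2% with 1 library left out. OGA turned sign within -0.54 to 0.23. Apart from fewer genes and samples in a fit, the cause was not tested.

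With the replicate number as a block, 1300 genes were called under DMSO, 3190 with AT7519 and 29 for the difference between agents, 1020 were seen again, and the shares were 30.7% for ATAGTGT and 4.35% for AATCGGA, which then ranked 76 among all words. The replicate differences of siOGT1 and siOGT2 correlated across genes at 0.0957 with DMSO and 0.189 with AT7519 (0.634 and 0.734 for genes with mean log2 CPM from 3 upward). Between agents, the replicate differences of the same siRNA correlated at -0.014 for siOGT1 and -0.135 for siOGT2 in the latter genes. Same-numbered libraries of an agent thus shared part of their spread, which the main fit, without a block, counts as noise. Its counts of calls, and the genes said not to pass, hold for that fit. What the replicate number stands for is not in the labels. No other scaling changed a count of calls by over 1.5 times. With 2 libraries per group, differences under the spread between them were not detectable.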
